A study of Mus musculus with 4 samples.

Results

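Interferons are secreted cytokines that put cells into an antiviral state. Type I interferons signal through their receptor and JAK kinases to a complex that holds STAT2 and IRF9. This complex binds the interferon-stimulated response element (ISRE) in the promoters of target genes, while interferon gamma acts mainly through the gamma-activated sequence (GAS). In haematopoietic stem cells, these cytokines are known to influence quiescence and cell cycle entry. The genes described here are 48 mouse interferon response genes, taken as a named list. The list was chosen with earlier results of these data known, so its counts and medians describe it and are not independent evidence. Of these, 43 had a probe set that names the gene alone, and the brightest such probe set over the 4 arrays stood for its gene. Oas1a, Gbp2, Dtx3l and Ifi27l2a lie on probe sets that name another gene as well, and they were not analysed here, nor was Ifi44. The same choice of probe sets gave 22180 genes in all. A floor for dim genes was set at 5.51 log2, the median of all gene values. A gene was compared when its highest value on the 4 arrays reached it, which 42 of the 43 interferon response genes and 12041 of all genes did. Mx1 stayed under the floor on all 4 arrays.

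Sorted marrow cells supplied the RNA, and Mouse Gene 2.0 ST arrays from Affymetrix measured it, with 1 array per genotype and so no replicates. The genotypes were Fancd2 knockout (Fancd2KO), Foxo3a knockout (Foxo3aKO), the double knockout of Fancd2 and Foxo3a (DKO) and wild type (WT), all from mice 2 months old and with no treatment named. Fancd2 acts in the Fanconi anaemia pathway of DNA crosslink repair, and Foxo3a (gene Foxo3) is a forkhead transcription factor. All cells were sorted as Lin-ckit+Sca-1+CD34-, a gate for long-term haematopoietic stem cells. The sample titles name the same cells SLAM. The sources used here do not give strain, sex, deleted exons or how many mice and cells each array stands for. No p-value or standard error between genotypes can be had from this design, and every difference below describes single arrays. The number of arrays limits the precision.

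Some facts of the arrays bear on all values. Fancd2 itself was at 6.08 log2 in Fancd2KO and 5.84 in DKO, against 6.56 in WT. Foxo3 was at 6.64 in Foxo3aKO and 6.51 in DKO, against 6.62 in WT. Foxo3 signal thus does not mark the arrays labelled as lacking it. Fancd2 was lower than in WT by -0.48 in Fancd2KO and -0.72 in DKO, within the disagreement of probe sets given below. Directions given for loss of either gene therefore rest on the labels. The stem cell genes Kit (10.41 to 10.67) and Mecom (8.56 to 8.97) were above the floor on every array. So were Cd34 (9.67 to 10.79), whose protein the gate excludes, and the neutrophil gene S100a8 (12.88 to 13.07). In 527 genes with 2 probe sets above the floor, the probe sets disagreed by under 0.91 log2 about Fancd2KO minus WT in 95% of genes. For Foxo3aKO and for DKO against WT the limit was 0.90. A smaller difference of a single gene is within this disagreement of probe sets. Both probe sets of a gene were read on the same arrays, so the limit does not measure variation between arrays or animals. A larger difference is therefore not shown to exceed that variation. Background control probe sets with 17 or more G or C bases per probe had medians of 6.18 log2 in Fancd2KO, 5.74 in Foxo3aKO and 6.39 in DKO, against 6.25 in WT. This background was thus lowest in Foxo3aKO, and its part in the differences below was not tested. On every array, 33 of the 42 interferon response genes lay above 6.39, while Isg15, Usp18, Ifit1, Ifit2, Dhx58, Oasl1, Mx2, Rsad2 and Cxcl10 did not.

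Promoters of the list were searched for the ISRE and the GAS, and neither was found in all of them. Promoter windows, 250 bases before to 50 after the start in RefSeq on GRCm38.p6, were found for 38 of the 48 genes. The ISRE core, searched on both strands as GAAA, any 2 bases and GAAA again, was present in 19 of these 38, against 3.99% of 27025 genes with a window. The GAS core, searched as TTCNNNGAA, was present in 10 (26.3%), against 9.55% of all genes. Both were found in 5 and neither in 14, among them Irf7, Irf9 and Lgals3bp. Of 28 ISRE matches, 1 overlapped a GAS match, in Bst2. The 24 matches that lay wholly before the start began between positions -222 and -14 relative to it. A match describes these letters in this window and is not a measured binding site.

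The stretches below are from the 8 genes with a match before the start whose values on each array are given further on. Each runs 5′ to 3′ along the gene's strand, and capitals mark the ISRE core.
Isg15, chr4:156200850-156200921, minus strand: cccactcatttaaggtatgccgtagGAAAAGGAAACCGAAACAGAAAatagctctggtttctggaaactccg
Ifit1, chr19:34640760-34640838, plus strand: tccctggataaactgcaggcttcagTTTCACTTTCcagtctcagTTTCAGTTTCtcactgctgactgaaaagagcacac
Stat2, chr10:128270251-128270310, plus strand: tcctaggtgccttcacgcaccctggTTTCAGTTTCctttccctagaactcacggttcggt
Bst2, chr8:71537562-71537627, minus strand: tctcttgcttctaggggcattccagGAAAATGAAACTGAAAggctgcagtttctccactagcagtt
Apobec3, chr15:79892243-79892302, plus strand: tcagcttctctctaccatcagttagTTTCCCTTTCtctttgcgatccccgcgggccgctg
Gbp3, chr3:142559974-142560039, plus strand: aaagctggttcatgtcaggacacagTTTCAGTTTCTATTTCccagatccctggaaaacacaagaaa
Igtp, chr11:58199497-58199555, plus strand: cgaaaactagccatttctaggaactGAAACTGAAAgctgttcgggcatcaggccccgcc
Irgm2, chr11:58214888-58214947, plus strand: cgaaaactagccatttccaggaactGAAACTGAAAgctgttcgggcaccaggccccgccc
Isg15 carries 3 overlapping cores, Ifit1 has 2 that lie apart, and Bst2 and Gbp3 have 2 that overlap. The stretches of the neighbouring genes Igtp and Irgm2 were identical at 57 of the 59 bases compared (96.6%).

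Interferon response genes were lower than in WT in both single knockouts, and more so in Foxo3aKO. Because the list was chosen with earlier results known, the shares of all genes given beside it are not a test. In Foxo3aKO, 39 of 42 were lower than in WT, against 55.4% of all 12041 genes, and 3 were higher, against 44.6% of all genes, and the median difference was -0.40 log2, against -0.04 over all genes. In Fancd2KO, 36 of 42 were lower than in WT, against 51.9% of all genes, with a median of -0.24, against -0.01 over all genes. In DKO, 31 of 42 were lower than in WT, against 53.4% of all genes, with a median of -0.16, against -0.03 over all genes. The middle 50% of the interferon response genes lay between -0.41 and -0.13 in Fancd2KO, between -0.72 and -0.18 in Foxo3aKO and between -0.50 and 0.03 in DKO. In bulk samples of this kind, fewer cells of a type and less RNA per cell cannot be told apart.

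At least 2-fold lower than in WT were 3 of the 42 in Fancd2KO (1.35% of all genes), 5 in Foxo3aKO (1.30% of all genes) and 0 in DKO (1.72% of all genes). In none of the 3 comparisons was any of the 42 at least 2-fold higher, which 1.68%, 1.81% and 1.37% of all genes were in Fancd2KO, Foxo3aKO and DKO. Most differences of the list were thus under 2-fold. With a 1.5-fold threshold, 6 were lower in Fancd2KO (6.29% of all genes), 16 in Foxo3aKO (7.62%) and 7 in DKO (6.30%). At that threshold 0 were higher in Fancd2KO (5.51% of all genes), Foxo3aKO (5.85%) or DKO (5.05%). The 3 comparisons share the WT array. WT was the highest of the 4 arrays for 26 of the 42 genes, against 27.6% of all genes, and Foxo3aKO was the lowest for 26, against 31.3% of all genes. A high WT array and lower knockout arrays cannot be told apart with 1 array each. Over the 33 genes above the G and C rich background on all arrays, the medians were -0.21 in Fancd2KO, -0.40 in Foxo3aKO and -0.16 in DKO.

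**Figure D1:**
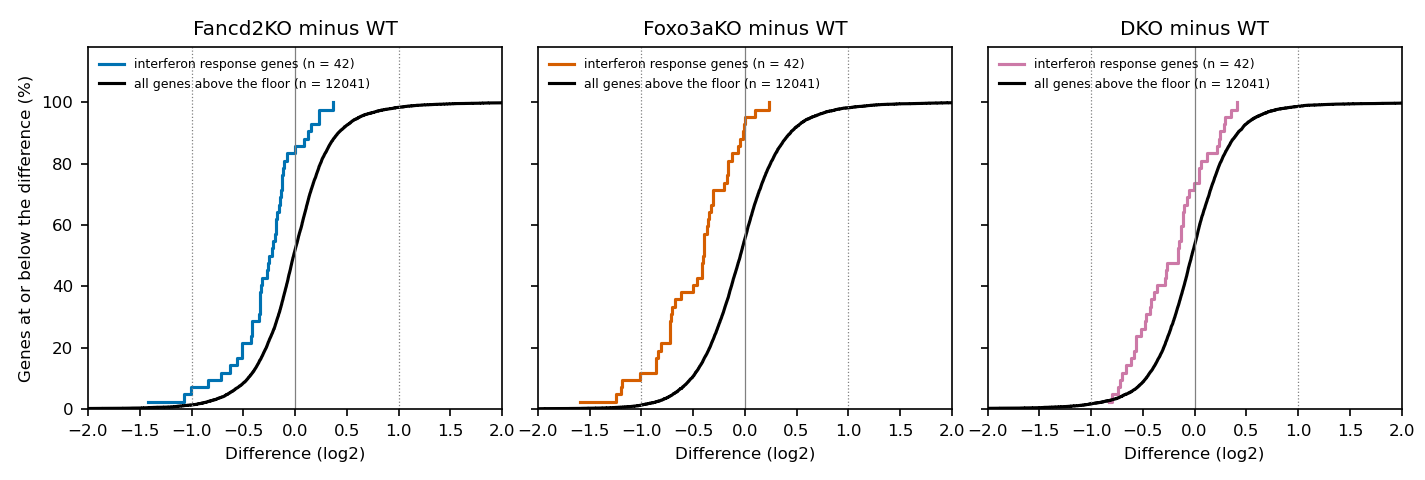
Share of genes (y axis, %) at or below each log2 difference from WT (x axis), in Fancd2KO, Foxo3aKO and DKO, for the 42 interferon response genes (coloured) and all 12041 genes above the floor (black). Dotted lines mark 2-fold; the coloured lines lie left of the black ones around the middle, with medians of -0.24, -0.40 and -0.16 against -0.01, -0.04 and -0.03 over all genes. In DKO, 0 of the 42 genes lie at or below the lower 2-fold line, against 1.72% of all genes.

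Among the regulators, Irf7, the factor that amplifies type I interferon production, was lowest in Foxo3aKO. Its log2 values were 7.18 in Fancd2KO, 6.94 in Foxo3aKO and 7.23 in DKO, against 7.80 in WT. WT was above all 3 knockouts, which differed from it by -0.63, -0.86 and -0.57. Irf9, the DNA-binding subunit of the ISRE complex, was at 6.96 in Fancd2KO, 7.11 in Foxo3aKO and 7.26 in DKO, against 7.52 in WT. Stat2, its partner, was at 7.39 in Fancd2KO, 7.33 in Foxo3aKO and 7.85 in DKO, against 7.73 in WT. Stat2 was therefore lower in the single knockouts, by -0.34 and -0.40, and 0.12 above WT in DKO. Irf1, which is best known as a target of interferon gamma, spanned only 7.79 in Fancd2KO, 7.93 in Foxo3aKO and 7.88 in DKO, against 7.95 in WT. All of these differences are within the disagreement of probe sets.

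Sensors of viral nucleic acids were slightly lower. All 6 measured members were lower than in WT in Foxo3aKO (median -0.39), 5 in Fancd2KO (median -0.24) and 5 in DKO (median -0.15). Zbp1, a sensor of Z-form nucleic acid, differed by -0.27 in Fancd2KO, -0.50 in Foxo3aKO and 0.07 in DKO. Eif2ak2, the kinase PKR that halts translation on double-stranded RNA, differed by -0.34, -0.40 and -0.43 in the same order, and the RNA-editing enzyme Adar by -0.41, -0.36 and -0.28. Of the RIG-I-like receptors, Ddx58 (RIG-I) differed by -0.21, -0.41 and -0.16 and Dhx58 (LGP2) by -0.19, -0.39 and -0.13. Zbp1 was the exception in DKO. That in Fancd2KO was Ifih1 (MDA5), at 8.43 in Fancd2KO, 8.11 in Foxo3aKO and 8.16 in DKO, against 8.28 in WT. It was the highest in Fancd2KO, 0.15 above WT.

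The ISG15 system held some of the largest differences. Isg15, the ubiquitin-like modifier, was at 6.29 in Fancd2KO, 5.47 in Foxo3aKO and 5.99 in DKO, against 6.72 in WT. It was 2.36-fold lower in Foxo3aKO (-1.24), just under the floor, and 1.65-fold lower in DKO (-0.72). Usp18, which removes ISG15 from proteins and restrains the interferon receptor, was at 6.73 in Fancd2KO, 6.26 in Foxo3aKO and 7.05 in DKO, against 7.44 in WT. It was 2.28-fold lower in Foxo3aKO (-1.19), while its DKO value lay between WT and both single knockouts. The ubiquitin and ISG15 ligase Trim25 differed by -0.13 in Fancd2KO, -0.72 in Foxo3aKO and -0.56 in DKO. Herc6, the main ISG15 ligase in mouse, went the other way in Foxo3aKO: it was at 8.14 in Fancd2KO, 8.38 in Foxo3aKO and 8.14 in DKO, against 8.15 in WT. Its differences in Fancd2KO and DKO were under 0.01 in size and changed sign with the normalisation.

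**Figure D2:**
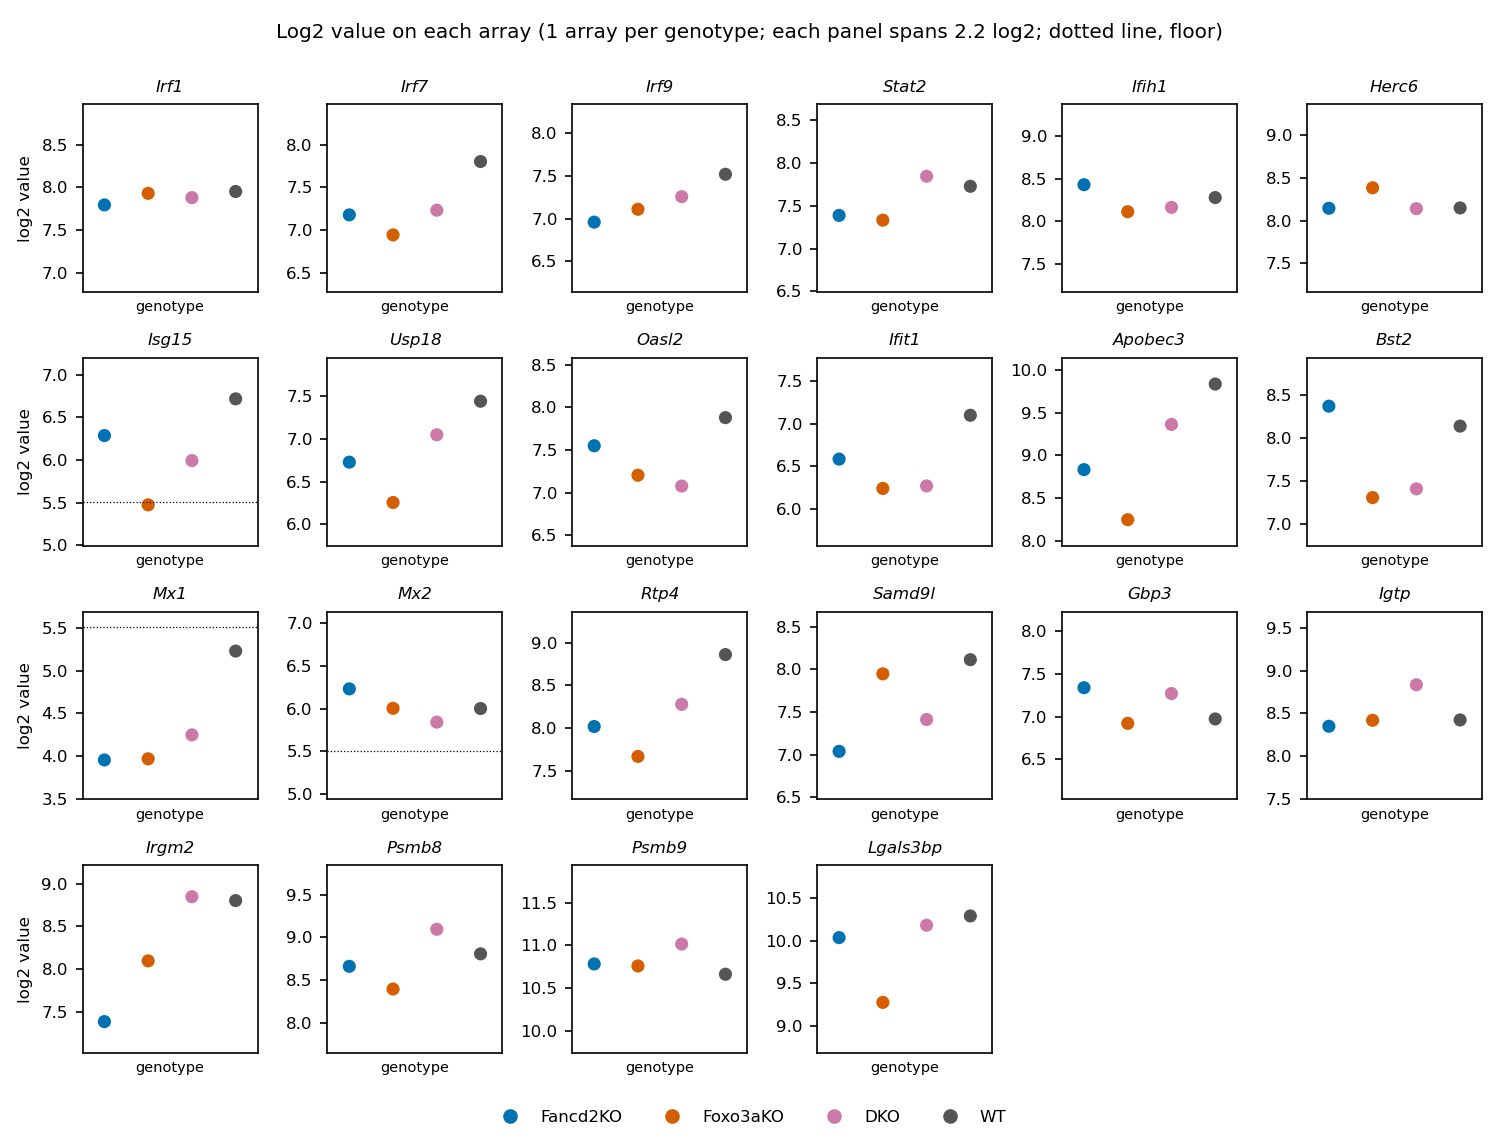
Log2 value (y axis) of 22 interferon response genes on the arrays of Fancd2KO, Foxo3aKO, DKO and WT, from left to right in each panel; each panel spans the same height, and the dotted line is the floor. Isg15, Usp18, Rtp4, Lgals3bp and Apobec3 are lowest in Foxo3aKO, Irgm2 and Samd9l in Fancd2KO, and Mx1 lies under the floor on all 4 arrays.

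The OAS family, whose enzymes activate RNase L on double-stranded RNA, was lower in the 2 genotypes without Foxo3a. All 4 measured members were lower than in WT in Foxo3aKO (median -0.52) and in DKO (median -0.52), against 3 of 4 in Fancd2KO (median -0.11). Oasl2 was at 7.55 in Fancd2KO, 7.20 in Foxo3aKO and 7.08 in DKO, against 7.88 in WT. Oas2 differed by 0.09 in Fancd2KO, -0.72 in Foxo3aKO and -0.62 in DKO, Oas3 by -0.11, -0.36 and -0.42, and the dim Oasl1 by -0.11, -0.06 and -0.13. All 4 were also lower in DKO than in Fancd2KO (median -0.39), a comparison in which 52.5% of all genes were lower. Of the IFIT proteins, which bind viral RNA caps, Ifit1 was at 6.58 in Fancd2KO, 6.24 in Foxo3aKO and 6.27 in DKO, against 7.10 in WT. Among the 42 genes above the floor, Ifit1 was farthest below WT in DKO (-0.83, 1.78-fold). Ifit2 differed by -0.22, -0.20 and -0.05 and Ifit3 by -0.13, -0.30 and 0.22, so the 3 genes of this family differed in size and sign in DKO. OAS and IFIT genes have close copies that can be hit by the same probes, which makes single values uncertain.

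Antiviral effectors included the largest single difference in Foxo3aKO. Apobec3, a cytidine deaminase that restricts retroviruses, was at 8.83 in Fancd2KO, 8.24 in Foxo3aKO and 9.36 in DKO, against 9.83 in WT. It was 3.01-fold lower in Foxo3aKO (-1.59) and 2.004-fold lower in Fancd2KO (-1.003). The Fancd2KO value fell short of 2-fold under all 3 other normalisations (-0.990, -0.994 and -0.996). Rtp4, a receptor chaperone with antiviral activity, was at 8.02 in Fancd2KO, 7.67 in Foxo3aKO and 8.28 in DKO, against 8.86 in WT. It was 2.29-fold lower in Foxo3aKO (-1.19) and 1.79-fold lower in Fancd2KO (-0.84). Samd9l, an inhibitor of translation, was at 7.04 in Fancd2KO, 7.95 in Foxo3aKO and 7.41 in DKO, against 8.11 in WT. Here the arrays without Fancd2 were the low ones, with 2.11-fold in Fancd2KO (-1.07) and 1.63-fold in DKO (-0.70), while Foxo3aKO differed by -0.17.

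Bst2, the tetherin that holds budding virus on the cell surface, showed the opposite arrangement. It was at 8.37 in Fancd2KO, 7.30 in Foxo3aKO and 7.41 in DKO, against 8.14 in WT, so that both arrays without Foxo3a were low and Fancd2KO was the highest. DKO was lower than Fancd2KO by -0.97, just beyond the 0.97 within which probe sets disagreed about that comparison in 95% of genes. Xaf1, which promotes apoptosis, differed by -0.35 in Fancd2KO, -0.72 in Foxo3aKO and -0.66 in DKO, and the nucleotide kinase Cmpk2 by -0.33, -0.72 and -0.48. Rsad2 (viperin) differed by -0.32, -0.46 and 0.05 and Trim30a by -0.19, -0.17 and -0.36. The Mx proteins are GTPases that block viral replication. Mx2 was at 6.23 in Fancd2KO, 6.01 in Foxo3aKO and 5.84 in DKO, against 6.003 in WT, and was thus not low in the single knockouts. Mx1 was at 3.95 in Fancd2KO, 3.97 in Foxo3aKO and 4.25 in DKO, against 5.23 in WT, all under the floor, so its differences of -1.28, -1.26 and -0.98 are between dim signals.

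The GTPases and antigen processing genes of the list stood apart from its other roles in DKO. Interferon-inducible GTPases act against pathogens inside vacuoles. All 4 measured ones of the list were higher in DKO than in WT (median 0.27), against 46.5% of all genes. All 3 antigen processing genes of the list were higher as well (median 0.29). The other 35 genes had a DKO median of -0.29, with 31 lower and 4 higher than WT, namely Stat2, Ifit3, Rsad2 and Zbp1. Both groups were chosen with earlier results of these data known, and no test was made of the split. Each of these DKO differences was at most 0.41, within the disagreement of probe sets, and all 7 signs held under the 3 other normalisations. Genes of these kinds outside the list did not all share the direction. Gbp5, Gbp7, Gbp8 and Gbp9 were lower in DKO than in WT (-0.28, -0.28, -0.49 and -0.26), while Gbp4 and Iigp1 were higher (1.002 and 0.15). Of 12 further antigen presentation genes, 6 were lower and 6 higher in DKO.

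Irgm2 was at 7.39 in Fancd2KO, 8.10 in Foxo3aKO and 8.85 in DKO, against 8.80 in WT. It was 2.67-fold lower in Fancd2KO than in WT (-1.42), the largest difference of the list in that array, and DKO was level with WT (0.05). Igtp, its neighbour on chromosome 11 with the nearly identical promoter stretch printed above, was at 8.35 in Fancd2KO, 8.42 in Foxo3aKO and 8.83 in DKO, against 8.42 in WT. The pair therefore differed in Fancd2KO, by -1.42 for Irgm2 and -0.07 for Igtp. Gbp3, a guanylate-binding protein, was at 7.34 in Fancd2KO, 6.92 in Foxo3aKO and 7.27 in DKO, against 6.97 in WT. Irgm1, a regulator of the other family members, differed by -0.41 in Fancd2KO, -0.13 in Foxo3aKO and 0.24 in DKO. IRG and GBP genes too have close copies.

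The antigen processing genes Psmb9, Tap1 and Psmb8 lie next to each other on chromosome 17. Psmb8, an immunoproteasome subunit, was at 8.66 in Fancd2KO, 8.40 in Foxo3aKO and 9.10 in DKO, against 8.81 in WT. Psmb9, another such subunit, was at 10.78 in Fancd2KO, 10.76 in Foxo3aKO and 11.01 in DKO, against 10.66 in WT. Tap1, a subunit of the peptide transporter, differed by -0.17, -0.35 and 0.24. DKO was the highest array for all 3, while Psmb9 was the only one of them not lower than WT in the single knockouts.

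The remaining roles followed the list as a whole. Lgals3bp, a secreted glycoprotein, was at 10.04 in Fancd2KO, 9.28 in Foxo3aKO and 10.18 in DKO, against 10.29 in WT. It was low in Foxo3aKO alone, by -1.01 (2.02-fold), and its other probe set gave -0.95 there, -0.16 in Fancd2KO and -0.07 in DKO. With cyclic loess the value was -0.99 and with the mean of both probe sets -0.98, so under 2-fold. Cxcl10, a chemokine that draws T cells, differed by -0.26 in Fancd2KO, -0.81 in Foxo3aKO and -0.51 in DKO, near or under the floor. Ifi35 differed by -0.18, -0.32 and -0.11, and its other probe set by -0.13, -0.14 and 0.19, so its DKO sign is not settled. The ADP-ribosyltransferases Parp14 and Parp9 differed by -0.51 and -0.13 in Fancd2KO, by -0.62 and -0.31 in Foxo3aKO and by -0.29 and -0.15 in DKO.

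**Figure D3:**
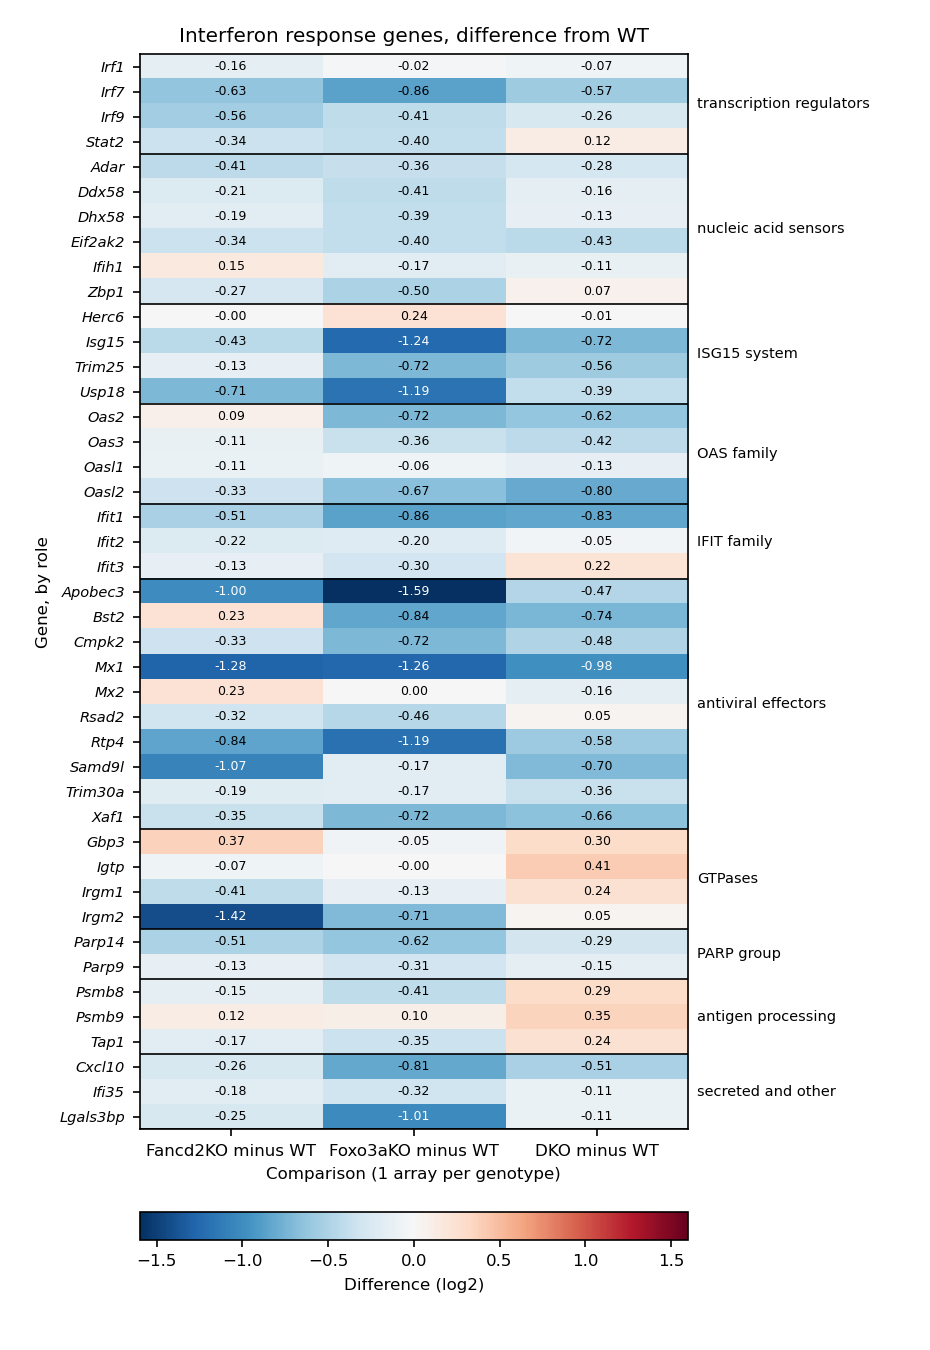
Log2 difference from WT (colour and printed value) of the 43 measured interferon response genes (rows, by role) in Fancd2KO, Foxo3aKO and DKO (columns). Blue is lower and red is higher than WT; the DKO column is red for all 4 GTPases and all 3 antigen processing genes and blue for most other genes.

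The genes were also described by whether the ISRE core was in their promoter window. The 17 compared genes with an ISRE match had medians of -0.26 in Fancd2KO, -0.40 in Foxo3aKO and -0.16 in DKO. The 17 with a window and no match had medians of -0.22, -0.36 and -0.13 in the same order. In Foxo3aKO, all 17 genes with a match and 15 of 17 without one were lower than in WT, and in DKO 10 of 17 with a match and 14 of 17 without. DKO minus Foxo3aKO had a median of 0.35 with a match and 0.15 without, and DKO minus Fancd2KO one of -0.07 with a match and 0.09 without. No test was made of these differences.

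The double knockout was then set against each single knockout, to ask how loss of the second gene goes with these genes. DKO was higher than Foxo3aKO for 33 of 42 genes, against 54.0% of all genes, and lower for 9, against 46.0% of all genes, with a median of 0.24, against 0.03 over all genes. Apobec3 was the only member at least 2-fold higher (1.12, 2.17-fold), where 1.18% of all genes were, and 0 members were 2-fold lower, where 2.18% of all genes were. Its difference exceeded the 0.95 of probe set disagreement. At 1.5-fold, 7 members were higher in DKO than in Foxo3aKO (5.83% of all genes) and 0 lower (6.52%). Against Fancd2KO, DKO was higher for 24 of 42 genes, where 47.4% of all genes were, with a median of 0.07, against -0.02 over all genes. Irgm2 was the only one at least 2-fold higher than in Fancd2KO (1.46, 2.76-fold), where 1.5% of all genes were, and 0 members were 2-fold lower, where 1.51% of all genes were. At 1.5-fold, 2 members were higher in DKO than in Fancd2KO (5.33% of all genes) and 2 lower (6.10%). DKO lay above both single knockouts for 22 of 42 genes, against 33.9% of all genes, below both for 7 and between them for 13.

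If the differences of both single knockouts simply added on the log2 scale, DKO would equal Fancd2KO plus Foxo3aKO minus WT. DKO was above this additive expectation for 36 of 42 genes, against 52.8% of all genes, and below it for 5, against 47.2% of all genes, with a median of 0.49, against 0.03 over all genes. At least 2-fold above it were 5 genes, where 3.99% of all genes were, and 0 were 2-fold below it, where 4.43% of all genes were. At 1.5-fold, 16 were above it (13.5% of all genes) and 0 below it (11.3%). The 5 genes were Irgm2 (2.17), Apobec3 (2.12), Usp18 (1.51), Rtp4 (1.45) and Lgals3bp (1.16), and all but Lgals3bp exceeded the 1.35 log2 within which probe sets disagreed in 95% of genes. OAS genes lay close to additivity, from 0.02 to 0.20. This quantity uses all 4 arrays, and the WT value enters it with a positive sign.

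**Figure D4:**
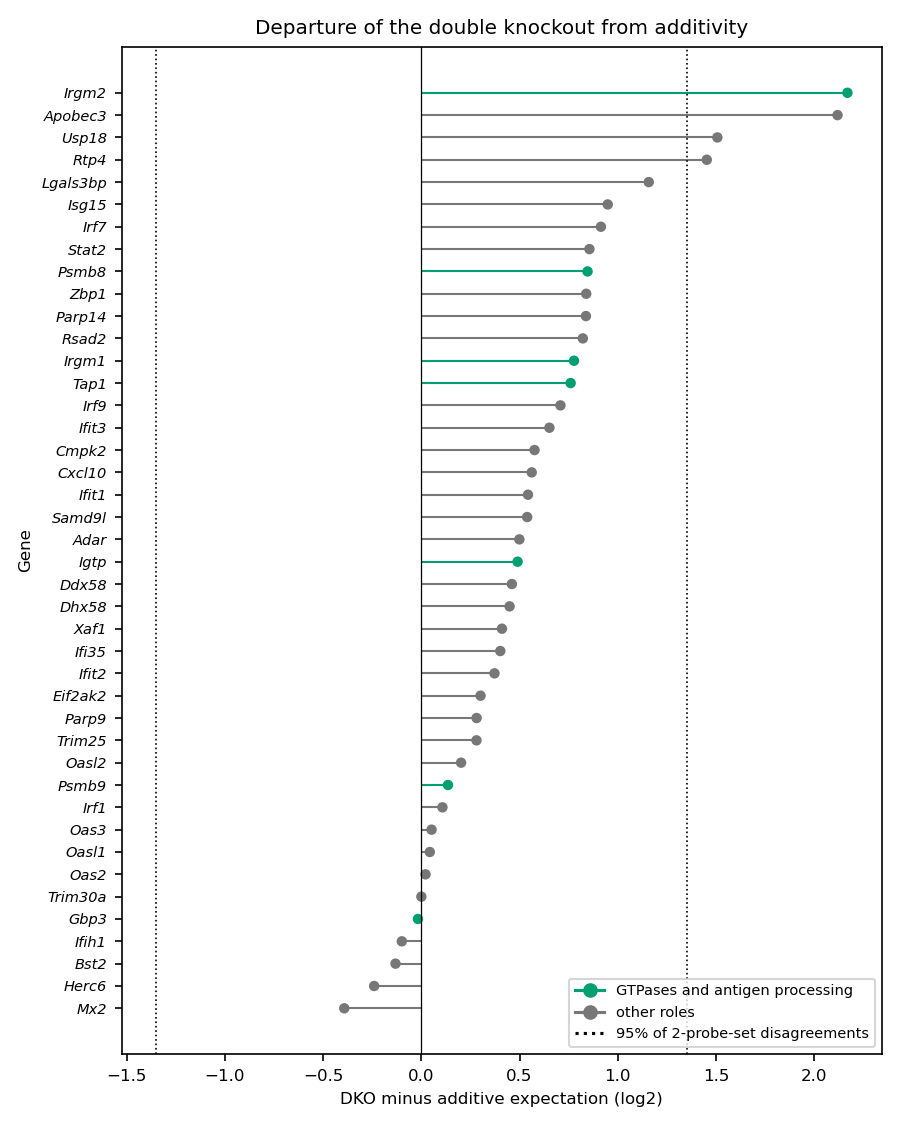
DKO minus the additive expectation (x axis, log2) for the 42 interferon response genes (y axis, sorted); green marks GTPases and antigen processing genes, and dotted lines mark the 1.35 log2 within which probe sets of the same gene disagreed in 95% of genes. Irgm2, Apobec3, Usp18 and Rtp4 lie beyond the right line, and 36 of 42 genes lie above 0.

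Other genes of the interferon system shared the direction in part. Of 42 compared interferon-induced genes outside the list, 35 were lower than in WT in Fancd2KO (median -0.21) and 28 in DKO (median -0.15). Of all genes, 51.9% and 53.4% were lower in these comparisons. In Foxo3aKO, 25 of the 42 were lower (median -0.15), a share of genes close to that of all genes (55.4%). For comparison, the median of the interferon response list in Foxo3aKO was -0.40, and the difference between the lists was not tested. None of the 42 was 2-fold lower in a knockout, where 1.35%, 1.30% and 1.72% of all genes were in Fancd2KO, Foxo3aKO and DKO. In DKO, 2 were 2-fold higher, Ms4a4c (1.58) and Gbp4 (1.002), where 1.37% of all genes were. Gbp4 was under the floor in WT (5.32), and with dim signals set to the floor it was 0.81 higher in DKO, under 2-fold. The bright genes Ly6e, Ifitm3 and Ifitm2 differed by -0.21, 0.16 and -0.03 in Fancd2KO, by -0.34, 0.17 and -0.03 in Foxo3aKO and by 0.19, 0.10 and -0.03 in DKO.

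Of 12 further antigen presentation genes, 9 were lower in Foxo3aKO (median -0.36), 8 in Fancd2KO (median -0.08) and 6 in DKO (median -0.03, with a sign that changed under quantile normalisation and cyclic loess). B2m, the light chain of MHC class I, differed by 0.03 in Fancd2KO, 0.15 in Foxo3aKO and 0.19 in DKO. Upstream of the list, 5 of 6 receptor genes were lower in Fancd2KO (median -0.28), 4 in Foxo3aKO (median -0.07) and 3 in DKO (median -0.09). Of all genes, 51.9%, 55.4% and 53.4% were lower in Fancd2KO, Foxo3aKO and DKO. The subunits of the type I receptor, Ifnar1 and Ifnar2, differed by -0.30 and -0.26 in Fancd2KO, by -0.45 and 0.14 in Foxo3aKO and by -0.24 and 0.06 in DKO. Ifnlr1, the lambda interferon receptor, was the one at least 2-fold lower, in Fancd2KO (-1.07), where its value of 5.15 was under the floor. Set to the floor there, it differed by -0.71 and was not 2-fold lower. Of the ligands, 4 of 9 measured reached the floor, with medians of -0.06, 0.08 and 0.06 in Fancd2KO, Foxo3aKO and DKO.

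Signal transduction genes had medians of -0.09 in Fancd2KO, 0.05 in Foxo3aKO and -0.09 in DKO over 7 genes, and the Foxo3aKO sign changed when arrays were centred on their medians. The kinase Jak1 differed by -0.09, 0.07 and -0.06, while Irf8, a myeloid and dendritic cell factor, was 1.25 higher in Foxo3aKO. Nucleic acid and Toll-like sensing genes had medians of -0.21, 0.09 and 0.13 over 12 genes, with 9, 6 and 4 lower than in WT in Fancd2KO, Foxo3aKO and DKO. The adaptor Sting1 differed by -0.57 in Fancd2KO, -0.56 in Foxo3aKO and -0.41 in DKO. Tbk1 and Aim2 went the other way, by 0.07 and 0.49 in Fancd2KO, 0.25 and 0.27 in Foxo3aKO and 0.09 and 0.41 in DKO. Inhibitors of signalling had medians of -0.05, 0.13 and 0.07 over 8 genes. Socs3, a feedback inhibitor of JAK kinases, was at 7.85 in Fancd2KO, 6.22 in Foxo3aKO and 5.50 in DKO, against 4.97 in WT, so that both DKO and WT were under the floor. As deposited it differed from WT by 2.88 in Fancd2KO, 1.25 in Foxo3aKO and 0.53 in DKO. With dim signals set to the floor these were 2.34, 0.71 and 0, and only Fancd2KO was still 2-fold higher.

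**Figure D5:**
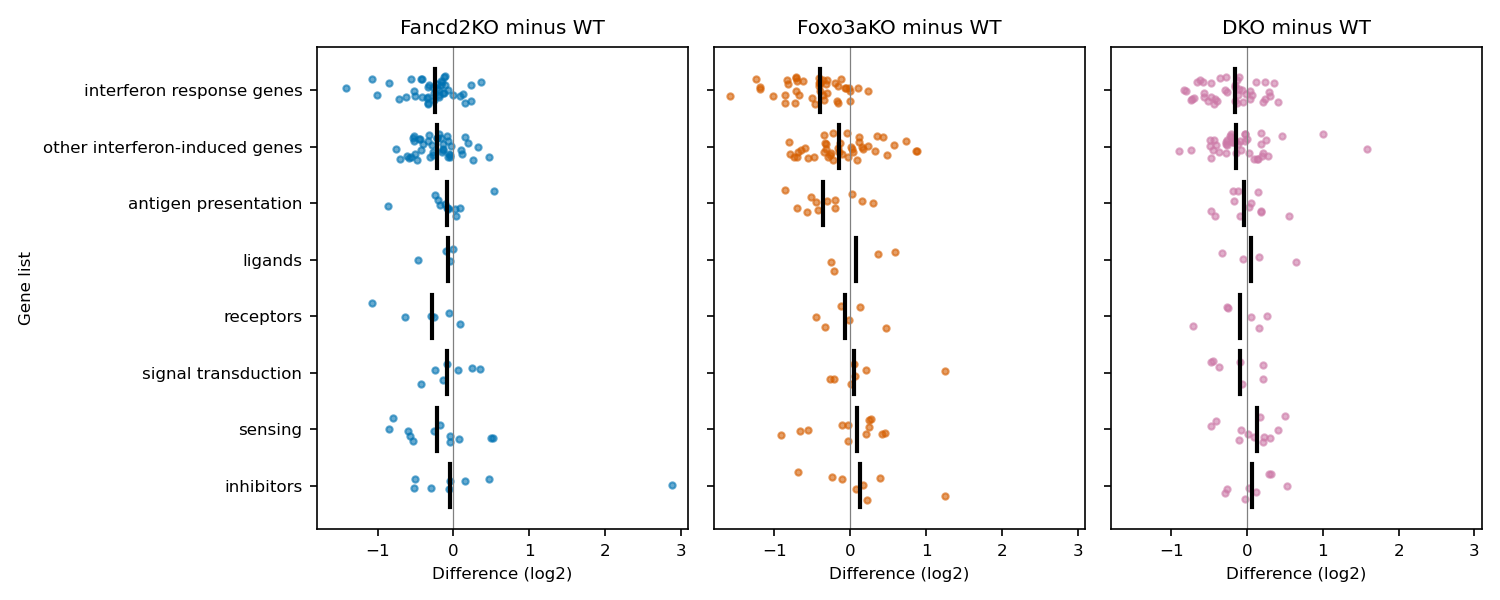
Log2 difference from WT (x axis) in Fancd2KO, Foxo3aKO and DKO for the interferon response genes and for 7 further lists of the interferon system (y axis); each point is a gene above the floor and black bars are list medians. The interferon response list has the lowest median in Foxo3aKO (-0.40), and the outlying inhibitor at 2.88 in Fancd2KO is Socs3, which was under the floor in WT (4.97).

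Markers of other blood cells also differed between the arrays. Summed on the linear signal scale, 9 monocyte and macrophage markers came to 2874 in Fancd2KO, 6252 in Foxo3aKO and 5424 in DKO, against 4322 in WT. Of these, 8 of 9 were lower than in WT in Fancd2KO (51.9% of all genes) and 9 of 9 were higher in Foxo3aKO (44.6% of all genes). In DKO, 6 of 9 were at least 2-fold higher (1.37% of all genes), led by Fcgr4 (4.08). The other 3 were lower in DKO, F13a1 (-1.21), Ccr2 (-0.81) and Ly6c2 (-0.38). DKO minus Foxo3aKO had a median of 0.70 over these 9 markers, with 4 at least 2-fold higher (1.18% of all genes) and 2 at least 2-fold lower (2.18%). The brightest marker, Ly6c2, carried much of each sum, and without it the other 8 came to 799 in Fancd2KO, 1876 in Foxo3aKO and 2979 in DKO, against 1141 in WT. The 9 neutrophil markers summed to 26313 in Fancd2KO, 37938 in Foxo3aKO and 26329 in DKO, against 31185 in WT. All 9 were higher than in WT in Foxo3aKO (44.6% of all genes), and 7 were lower in both Fancd2KO (51.9%) and DKO (53.4%). Elane and Mpo went the other way, by 0.62 and 0.18 in Fancd2KO and by 1.007 and 0.36 in DKO. Foxo3aKO, the lowest array for 26 of the 42 interferon response genes, thus had the highest neutrophil sum, while the highest monocyte and macrophage sum was in Foxo3aKO with Ly6c2 and in DKO without it.

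The 8 markers of plasmacytoid dendritic cells, a main source of type I interferon, summed to 1237 in Fancd2KO, 1335 in Foxo3aKO and 794 in DKO, against 1281 in WT. Their defining gene Siglech was at 5.63 in Fancd2KO, 6.99 in Foxo3aKO and 4.81 in DKO, against 5.68 in WT. Of the 7 markers above the floor, 4 were higher and 3 lower in Foxo3aKO than in WT, with Siglech at 1.31 and Irf8 at 1.25, and with Ly6d at -0.91, Bst2 at -0.84 and Tcf4 at -0.18. In DKO all 7 were lower (53.4% of all genes), with a median of -0.74. That median is the value of Bst2, which is also an interferon response gene of the list, so these markers are not wholly separate from it. Summed levels of 4 measured B cell markers were 346 in Fancd2KO, 315 in Foxo3aKO and 228 in DKO, against 456 in WT, those of 4 erythroid markers were 370, 359 and 982, against 768 in WT, and those of 6 T and NK cell markers were 968, 1218 and 1031, against 874 in WT. The brightest erythroid marker, Car1 (9.48 in DKO, 8.87 in WT), carried much of its sum. In DKO, 2 erythroid markers were higher than in WT, Car1 (0.60) and Epor (0.64), and 2 were lower, Klf1 (-0.93) and Ermap (-0.24). Flt3, a gene of the progenitors that follow the stem cell, was at 7.34 in Fancd2KO, 7.37 in Foxo3aKO and 6.67 in DKO, against 8.97 in WT. The brightest T and NK cell marker, Nkg7 (9.44 in WT), carried much of that sum and differed by 0.09 in Fancd2KO, -0.01 in Foxo3aKO and 0.14 in DKO. Cd3d differed by 0.48, 2.24 and 0.99 in the same order. Cd3e, under the floor in WT (4.76), differed by 1.06, 0.72 and -0.004. Ccr9, Cd3g, Klrb1c and Gzmb were under the floor on all arrays. The part of these markers in the differences of the interferon response genes was not tested.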

How the data were processed

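The deposited table held log2 expression values made by the authors for 41345 probe sets on 4 arrays, 1 per genotype. Affymetrix Expression Console was used, per the submitters' processing notes, and the sources used here do not state its version, summarisation or normalisation. Gene names came from GEO's annotation of the platform, in which 23521 probe sets had 1 symbol and were used, and 1814 had several. The between-array normalisation was kept as deposited. Log2 values were subtracted in Python 3.11.15 (pandas 2.3.3), and the subtraction was tested on simulated data. With 1 array per genotype no test was made, and 2-fold (1 log2) counts are set beside those of all genes above the floor.

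The interferon response genes, their roles and the further lists were chosen with earlier results of these data known. Values on every array are given for genes at least 2-fold from WT, the 4 largest differences in each direction per knockout, and Irf1, Irf7, Irf9 and Stat2. Other genes of the interferon system are named from those above the floor and 2-fold apart from WT or among the 3 brightest of their list. Gbp5, Gbp7, Gbp8, Gbp9 and Iigp1 are named beyond this rule, beside the GTPases of the list. Marker genes named singly were chosen after their values were seen. Setting dim signals of genes outside the list to the floor, and the monocyte sum without its brightest marker, were also added after seeing the data. Alternatives were quantile normalisation, median centring and cyclic loess (limma 3.58.1), no floor, dim signals raised to the floor, the mean of all probe sets, genes with 1 probe set, and a 1.5-fold threshold. Coordinates are those of the RefSeq promoter table on GRCm38.p6, and the sources used here name no build for the arrays.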

Additional observations from a re-analysis of the deposited data

Results flagged for a closer look

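For several results, the effect of losing 1 gene ran in opposite directions without and with loss of the other, and these differences were not tested, since each effect is a difference of 2 single arrays. Over the 42 genes, the median effect of Fancd2 loss was 0.24 in the absence of Foxo3a and -0.24 in its presence, and that of Foxo3a loss was 0.07 in the absence of Fancd2 and -0.40 in its presence. The median departure of DKO from additivity was 0.49.

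Among the genes with values given on every array, 6 showed opposite directions for both losses with a departure of at least 1 log2. All 6 were at least 2-fold from WT in a knockout and were named for it, and the same values enter the departure. The departures are therefore not independent of that choice. The departures were 2.17 for Irgm2, 2.12 for Apobec3, 1.51 for Usp18, 1.45 for Rtp4, 1.16 for Lgals3bp and 1.56 for Mx1, which was under the floor on all arrays. For Irgm2, Fancd2 loss gave 0.75 in the absence of Foxo3a and -1.42 in its presence. For Apobec3, the same loss gave 1.12 in the absence of Foxo3a and -1.003 in its presence.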

How the results depend on the processing

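The list medians kept their sign under all 7 alternatives that apply to them, from -0.25 to -0.22 for Fancd2KO minus WT, -0.46 to -0.37 for Foxo3aKO minus WT, -0.21 to -0.14 for DKO minus WT, 0.03 to 0.13 for DKO minus Fancd2KO, 0.23 to 0.28 for DKO minus Foxo3aKO and 0.48 to 0.55 for DKO minus additivity. The other normalisations moved the median of all genes by at most 0.06. With the 1.5-fold threshold, 6, 16 and 7 genes were lower than in WT in Fancd2KO, Foxo3aKO and DKO. In DKO minus Fancd2KO, 2 were then lower and 2 higher, in DKO minus Foxo3aKO 7 were higher, and 16 were above the additive expectation. With arrays centred on their medians, 1 gene was 2-fold lower in DKO than in Fancd2KO, against 0 as deposited. Raising dim signals to the floor brought the differences of Mx1 from WT and from additivity to 0. Among the interferon response genes, signs that changed with a normalisation belonged to differences of at most 0.03 in size. Of the medians of role groups and further lists, 7 changed sign, all at most 0.05 in size as deposited. No paired analysis was possible because each genotype has 1 array.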

Other observations

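Neighbouring genes of the list, as ordered in the RefSeq table of GRCm38.p6, did not always share their differences. Rsad2 and Cmpk2 on chromosome 12 were close in Fancd2KO (-0.32 and -0.33) and apart in DKO (0.05 and -0.48). Oasl2 and Oasl1 on chromosome 5 differed from WT by -0.80 and -0.13 in DKO and by -0.67 and -0.06 in Foxo3aKO. Oas2 and Oas3 on the same chromosome were closer, by -0.62 and -0.42 in DKO and by -0.72 and -0.36 in Foxo3aKO. Tap1 and Psmb8 on chromosome 17 were close in every knockout, at -0.17 and -0.15 in Fancd2KO, -0.35 and -0.41 in Foxo3aKO and 0.24 and 0.29 in DKO.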
